A study of Mus musculus with 8 samples.

Results

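The G1 phase genes described here are 10 genes of the 22298 in the mRNA table, chosen by their symbols: the cyclins Ccnd2, Ccnd3 and Ccne1, the kinases Cdk4 and Cdk6, the inhibitors Cdkn1a, Cdkn1b and Cdkn2c, the retinoblastoma gene Rb1 and the transcription factor gene Myc. Each symbol matched 1 row, so all 10 were found. Live B220+ cells were sorted from the bone marrow of untreated wild type female C57BL/6 mice of 8 to 10 weeks into 4 stages. Pro-B cells carried CD43 and no IgM, pre-B cells had neither, immature B cells had IgM without CD43, and mature B cells differed from these by a high level of B220. Cells of 3 mice were pooled for each population, and 1 rRNA-depleted RNA library was sequenced per stage. No comparison between stages therefore has a replicate check, intervals cover counting error only, and the values compare 4 libraries.

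In G1, D-type cyclins bind Cdk4 or Cdk6, and the complexes phosphorylate the retinoblastoma protein, which otherwise holds E2F transcription factors in check. Cyclin E with Cdk2 then carries the cell into S phase, while inhibitors of the INK4 and CIP/KIP families slow these kinases. Early B-cell progenitors are known to alternate between phases of division and quiescent phases in which immunoglobulin genes are rearranged, and mature B cells of the marrow are mostly resting.

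The mRNA counts of the libraries summed to between 223495 and 867920, and this unevenness shapes every comparison. The pro-B and mature B libraries held 867920 and 849350 mRNA counts, and the pre-B and immature B libraries 240231 and 223495. Of the counts in the mRNA and lncRNA tables together, mRNAs made up 23.7% and 23.5% in the pro-B and mature B libraries, and 6.48% in both the pre-B and the immature B library. A count of 1 was therefore worth between 1.15 and 4.47 CPM, which are mRNA counts scaled to a total of 1000000 and are the scale used below unless another is named. The pairs pro-B with mature B and pre-B with immature B had like mRNA counts and like mRNA shares. Depth here and below means the mRNA counts of a library. The totals of both tables were close across that gap, with log2 ratios of 0.02 for pre-B over pro-B and 0.07 for mature over immature B. Scaling to the totals of both tables instead of the mRNA total moved a log2 ratio by -0.01 for mature B over pro-B and by less for immature B over pre-B, but by -1.87 for pre-B over pro-B and by 1.86 for mature over immature B. For that reason the pairs of like depth are given first, and the order of a gene's levels over all 4 libraries, which crosses the gap, is given with what the other scales show.

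The labels were checked against marker genes. The 6 pro-B markers summed to 2321 CPM in the pro-B library and to between 44.7 and 179 CPM in the others, and the 5 genes common to B cells of all stages summed to between 3103 and 5330 CPM. The sums of other lists did not single out their stage, and Rag1 and Ighm made up much of them. The 4 pre-B markers summed to 1278 CPM in the pro-B library against 1066 in pre-B, with 576 in immature B and 15.2 in mature B. Of these, Rag1 was at 918 CPM in pro-B and 372 in pre-B. On the mRNA total Rag2, Il2ra and Vpreb3 were higher in pre-B than in pro-B. Their counts were lower in pre-B, with 76 against 95, 20 against 59 and 70.79 against 158.26. Scaled to both tables, 0 of the 4 pre-B markers were at least 2-fold higher in pre-B than in pro-B and 3 at least 2-fold lower. All genes gave 2.33% and 83.5% on that scale. The 8 markers of immature and mature B cells summed to 4514, 7688, 10072 and 8771 CPM from pro-B to mature B. Ighm alone was at 3775, 7147, 7816 and 3902 CPM. In mature B against pro-B, 6 of the 8 were at least 2-fold higher and 1 lower, against 13.2% and 24.2% of all genes. Of 6 T and NK cell markers, 5 were above 0 in the pro-B library with 178 counts together (205 CPM), none in the pre-B and immature B libraries, and 3 in the mature B library with 5 counts. Cd3e was at 0 in the pro-B library. Myeloid markers summed to between 790 and 1049 CPM and erythroid markers to between 103 and 282 CPM, with Csf1r at 0 throughout. The part of such cells in the values below was not tested, and in sorted pools a lower value can mean fewer cells of a type or less RNA per cell, which cannot be told apart. As a measure of dividing cells, 13 DNA replication genes summed to 2217 CPM in the pro-B library, 2625 in pre-B, 745 in immature B and 768 in mature B. Of the 630.7 pre-B counts in that sum, 364.72 were of Gins2, and without this gene, left out after its values were seen, the sums were 2096, 1107, 745 and 753 CPM. Tyms made up 86.23 of the 166.52 immature B counts, and with it left out as well, also after seeing its values, the sums of the other 11 genes were 1998, 791, 359 and 692 CPM. The 12 mitosis genes summed to 1167, 505, 285 and 297 CPM in the same order. Scaled to both tables, the mitosis sums were 276, 32.7, 18.5 and 69.7 CPM. Those of all 13 replication genes were 525, 170, 48.3 and 180 CPM. On that scale mature B lay above pre-B, so the order of these 2 libraries depended on the scale, while pro-B was highest.

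Compared per transcript length, Rb1 had the highest level of the 10 genes in 3 libraries, with 25.2 FPKM in pro-B, 7.37 in pre-B and 6.22 in immature B cells. In mature B cells the order changed, and Myc led with 19.33 FPKM, ahead of Rb1 with 16.95. Ccnd3 stood second in the pro-B and pre-B libraries, with 21.61 and 4.51 FPKM. At the lower end, Cdkn2c lay between 0.46 and 0.7 FPKM in all libraries and Cdkn1a between 0 and 2.28. The genes with few counts were Cdkn1a, Cdkn2c and Ccne1, each with 10 or more counts in only 1 library, and Cdk4 and Myc reached 10 counts in 3.

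**Figure D1:**
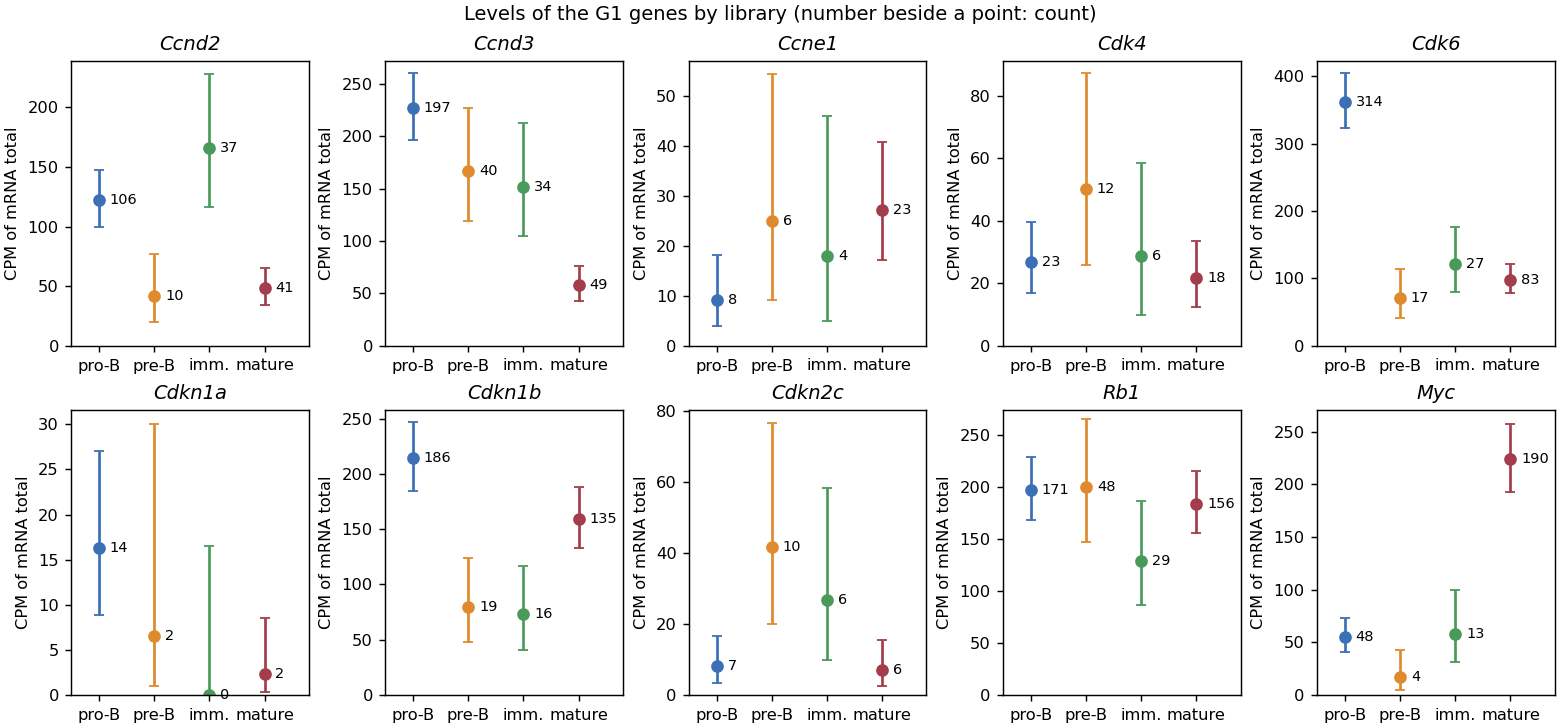
Level of each G1 gene in the 4 libraries, in CPM of the mRNA total on an axis from 0 that differs between panels, with exact 95% Poisson intervals as bars (counting error only) and the rounded count beside each point. Cdk6 stands apart in the pro-B library with 314 counts and Myc in the mature B library with 190, while the intervals of Rb1 overlap in all libraries on this scale.

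Ccnd2, whose cyclin D2 links receptor signals to Cdk4 and Cdk6, had 106 counts in pro-B, 10 in pre-B, 37 in immature B and 41 in mature B cells. On the CPM scale these were 122 (95% Poisson interval 100 to 148), 41.6 (20 to 76.6), 166 (117 to 228) and 48.3 (34.6 to 65.5). The pro-B and immature B libraries were high and the other two low, and neither pair of neighbours within the high or low values differed beyond counting error. The order depended on the scale. Scaled to both tables, the values were 28.9, 2.70, 10.7 and 11.3 CPM, and the highest level was in pro-B cells, as it was in FPKM.

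Ccnd3, encoding cyclin D3, which is known to be needed for the division of early pre-B cells, had 197, 40, 34 and 49 counts from pro-B to mature B cells. Its CPM values were 227 (196 to 261), 167 (119 to 227), 152 (105 to 213) and 57.7 (42.7 to 76.3). On this scale pre-B did not differ beyond counting error from pro-B or from immature B, and the mature B library lay below them. Pro-B against immature B, at 227 and 152 CPM, was not compared for counting error. Scaled to both tables, the values were 53.8, 10.8, 9.85 and 13.6 CPM, so that pro-B stood apart with a log2 ratio of pre-B over pro-B of -2.32 (-2.85 to -1.82), and mature B lay above immature B by a log2 ratio of 0.46 (-0.20 to 1.14), within counting error. The deposited FPKM values of 21.61, 4.51, 4.45 and 10.03 had the same order as on both tables. Pro-B was the highest library for Ccnd3 on all 3 scales. Ccnd1, a D cyclin gene that is not among the 10, had 95, 6.85, 6.6 and 16.34 estimated counts from pro-B to mature B. It was left out of the share that follows. The share of Ccnd2 in the counts of Ccnd2 and Ccnd3 together needs no library total. It was 35.0% in pro-B (95% Wilson interval 29.8 to 40.5), 20% in pre-B (11.2 to 33), 52.1% in immature B (40.7 to 63.3) and 45.6% in mature B (35.7 to 55.8). The interval of the pre-B library did not overlap those of the immature B and mature B libraries. Per length, Ccnd3 was 6.18 times Ccnd2 in pre-B cells and 0.961 times in immature B cells.

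Ccne1, encoding cyclin E1, the partner of Cdk2 at entry into S phase, had 8, 6, 4 and 23 counts. The CPM values of 9.22, 25.0, 17.9 and 27.1 had wide intervals, and no neighbours in the order of levels differed beyond counting error. Of the 4 comparisons made on the mRNA total, the counting interval of the ratio excluded no difference only for mature B against pro-B. On both tables it also did so for mature against immature B, with a log2 ratio of 2.46 (0.91 to 4.45).

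Cdk4 and Cdk6 encode the kinases that D-type cyclins activate. Cdk6 had 314 counts in pro-B, 17 in pre-B, 27 in immature B and 83 in mature B cells, that is 362 CPM (323 to 404), 70.8 (41.2 to 113), 121 (79.6 to 176) and 97.7 (77.8 to 121). The pro-B library was high, and on this scale the other libraries did not differ from their neighbours beyond counting error. On both tables pro-B was again highest, but mature B exceeded immature B with a log2 ratio of 1.55 (0.91 to 2.24), which was 0.17 in FPKM. Cdk4 had 23.17, 12.08, 6.4 and 18.39 estimated counts, and its values of 26.7, 50.3, 28.6 and 21.7 CPM did not separate from their neighbours. Pre-B against mature B, at 50.3 and 21.7 CPM, was not compared for counting error. The highest library of Cdk4 was pre-B on the mRNA total, pro-B on both tables and mature B in FPKM. Between the highest and lowest library Cdk4 differed 2.32-fold on the mRNA total and 3.41-fold on both tables, and Cdk6 5.11-fold and 18.7-fold. Per length, Cdk6 was 3.21 times Cdk4 in the pro-B library, 1 time in pre-B, 4.04 times in immature B and 1.59 times in mature B. By counts the order was another, with 314 of Cdk6 against 23.17 of Cdk4 in pro-B and 27 against 6.4 in immature B.

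The counts and FPKM values of Cdk6 did not keep a common ratio. Counts per FPKM unit, divided by the median of the library over genes with at least 20 counts, were 1.94 in pro-B, 0.508 in pre-B, 0.385 in immature B and 1.04 in mature B. For Cdkn1b the same measure was 0.939, 1.75, 0.905 and 0.835, for Ccnd3 0.651, 0.594, 0.563 and 0.355, and for Ccnd2 0.531, 0.917, 0.589 and 0.641. For these genes the ratios in FPKM and in CPM thus differed by more than a factor common to the library. FPKM values use the lengths of the transcripts that StringTie assigned, and the part of these lengths in the difference was not tested. The deposited table gives no values per transcript of these mRNAs, and which transcripts were assigned was not tested.

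The promoters of the kinases are shown because Myc, which differed most between its highest and lowest library among the genes above 0 in all 4, encodes a factor that binds the E-box CACGTG with its partner Max. RefSeq promoters (GRCm38.p6, 250 bases before to 50 after an annotated start) were found for 7 of the genes with 10 entries, and not for Ccnd2, Rb1 and Myc. The E-box, a palindrome that reads alike on both strands, was in 7.15% of 32851 promoters, and 8 promoters (0.0244%) held it at 4 or more places. Cdk4 was one of those, with matches 172, 118, 98 and 11 bases before the start. Cdk6 held 1 match, 220 bases before its start, and Cdkn2c 1 match 34 bases past a start. The E2F motif, searched on both strands as TTTCCCGC, TTTCGCGC, TTTGCCGC and TTTGGCGC, was in 2.26% of all promoters and in none of these 7 genes. The stretches with matches are printed 5′ to 3′ with the E-box in capitals, for Cdk4 from chr10:127063338-127063534 and for Cdk6 from chr5:3343648-3343703, both on the plus strand.
Cdk4: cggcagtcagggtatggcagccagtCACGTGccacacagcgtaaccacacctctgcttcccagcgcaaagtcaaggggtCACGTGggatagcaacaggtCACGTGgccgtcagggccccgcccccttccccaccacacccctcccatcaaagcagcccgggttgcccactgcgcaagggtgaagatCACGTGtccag
Cdk6: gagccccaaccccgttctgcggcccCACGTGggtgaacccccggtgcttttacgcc
A match is a description of these letters, and binding was not measured.

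Cdkn1b, encoding p27, the CIP/KIP inhibitor known for keeping resting lymphocytes out of the cycle, had 186.04, 19.03, 16.44 and 135 estimated counts. It was at 214 CPM in pro-B (185 to 247), 79.2 in pre-B (47.6 to 124), 73.6 in immature B (40.9 to 116) and 159 in mature B (133 to 188). The pro-B and mature B libraries were high, with mature B below pro-B beyond counting error. The pre-B and immature B libraries were low and not different from one another beyond counting error. Set against Ccnd3 within a library, which needs no total, Cdkn1b had 0.944 counts per count of Ccnd3 in pro-B (0.769 to 1.16), 0.476 in pre-B (0.260 to 0.840), 0.484 in immature B (0.243 to 0.876) and 2.76 in mature B (1.97 to 3.90). The mature B interval lay above those of the other 3 libraries, which means that relative to Ccnd3 the inhibitor was highest there.

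Cdkn1a, encoding p21, the CIP/KIP inhibitor that p53 induces, had 14.11 counts in pro-B cells, 1.57 in pre-B, 0 in immature B and 2 in mature B cells. The immature B count of 0 had a 95% Poisson interval up to 3.69 counts, or 16.5 CPM, which includes the 16.3 CPM of the pro-B library. Cdkn2c, encoding the INK4 inhibitor p18, had 7, 10, 6 and 6 counts. Nearly level in counts, it was at 8.07 and 7.06 CPM in the pro-B and mature B libraries and at 41.6 and 26.8 CPM in the pre-B and immature B libraries, which have fewer mRNA counts.

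Rb1 had 170.97, 48, 28.81 and 156.16 counts, or 197 CPM (169 to 229), 200 (147 to 265), 129 (86.9 to 186) and 184 (156 to 215). On this scale no neighbours in the order of levels differed beyond counting error, and the highest library exceeded the lowest 1.55-fold. Pro-B against immature B, at 197 and 129 CPM, was not compared for counting error. The narrow range did not hold on the other scales. On both tables Rb1 was at 46.7, 12.9, 8.35 and 43.2 CPM, a range of 5.59-fold, and mature over immature B had a log2 ratio of 2.37 (1.78 to 2.99). In FPKM the range was 4.05-fold. Myc, which drives growth and G1 progression, had 48 counts in pro-B, 4 in pre-B, 13 in immature B and 190 in mature B cells. Its levels were 55.3 CPM (40.8 to 73.3), 16.7 (4.54 to 42.6), 58.2 (31.0 to 99.5) and 224 (193 to 258). The mature B library was high, pro-B and immature B did not differ beyond counting error on the mRNA total, and pre-B was low. On both tables the values were 13.1, 1.08, 3.77 and 52.6 CPM, with pro-B above immature B. Myc was highest in mature B cells on the CPM, FPKM and both-table scales alike. Per count of Cdk6 it had 0.153 counts in pro-B (0.110 to 0.208), 0.235 in pre-B (0.0576 to 0.721), 0.481 in immature B (0.228 to 0.966) and 2.29 in mature B (1.76 to 3). In FPKM, Myc was at 5.86, 0.39, 1.33 and 19.33 and Cdk6 at 11.58, 2.24, 5.17 and 5.81 from pro-B to mature B. By these values Myc relative to Cdk6 was lower in pre-B and immature B than in pro-B, and again highest in mature B.

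The ends of the series, mature B against pro-B, form a pair of like depth. Among the 9 genes with at least 10 counts in 1 of these libraries, 2 were at least 2-fold higher in mature B cells and 4 at least 2-fold lower. Over all 9630 genes with that many counts, 13.2% were at least 2-fold higher and 24.2% at least 2-fold lower, and the median log2 ratio was -0.19, against -0.43 for the 9 genes. Myc was 4.04-fold higher (log2 ratio 2.02, 95% counting interval 1.55 to 2.50) and Ccne1 2.94-fold higher (1.55, 0.34 to 2.93). Ccnd3 was 3.93-fold lower (log2 ratio -1.98, -2.46 to -1.52), Cdk6 3.70-fold lower (-1.89, -2.26 to -1.54) and Ccnd2 2.53-fold lower (-1.34, -1.90 to -0.81). In FPKM, Cdk6 had a log2 ratio of -0.995 and was no longer 2-fold lower, which left 3 lower genes, and Ccnd3 had -1.11. Cdkn1a, at 14.11 against 2 counts, had a log2 ratio of -2.79 (-5.96 to -0.65). Cdkn1b and Rb1, with log2 ratios of -0.43 (-0.76 to -0.10) and -0.10 (-0.42 to 0.22), stayed within 2-fold. In FPKM the log2 ratio of Rb1 was -0.57, also within 2-fold but below its counting interval. Cdk4 had a log2 ratio of -0.30 (-1.30 to 0.63), an interval that includes both a difference of over 2-fold and none. By counts, Ccnd2, Ccnd3 and Cdk6 were thus lower, Myc and Ccne1 higher, and Rb1 near its pro-B level in the mature B library. Cdkn1b was lower there beyond counting error, by less than 2-fold. The pro-B library also held the T and NK cell markers given above, whose part in its higher values was not tested.

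In the other pair of like depth, immature B against pre-B, 2 of the 8 genes with enough counts were at least 2-fold higher and none at least 2-fold lower in immature B cells, against 18.9% and 20.2% of 5839 genes. Ccnd2 was 3.98-fold higher (log2 ratio 1.99, 0.96 to 3.16) with 37 against 10 counts. Myc was 3.49-fold higher (1.80, 0.11 to 3.88), but on 13 against 4 counts. Ccnd3 had a log2 ratio of -0.13 (-0.83 to 0.57) and Cdkn1b of -0.11 (-1.20 to 0.89). The median over the 8 genes was -0.12, against -0.02 for all genes. Between these libraries the DNA replication sum without Gins2 was 1107 CPM in pre-B against 745 in immature B cells, and, again without Gins2, 5 of the 8 replication genes with enough counts were at least 2-fold lower in immature B cells.

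**Figure D2:**
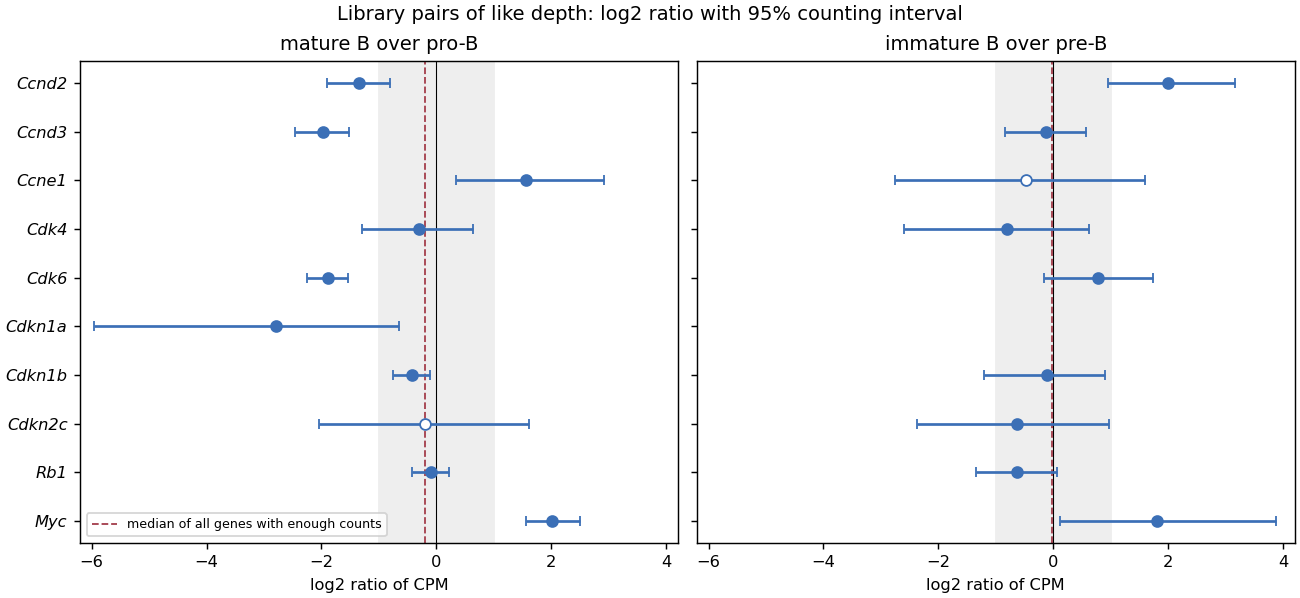
Log2 ratio of CPM for each G1 gene in the library pairs of like mRNA depth, mature B over pro-B at left and immature B over pre-B at right, with 95% counting intervals; open points have under 10 counts in both libraries, the grey band spans a 2-fold difference either way, and Cdkn1a has no ratio at right. Ccnd3 and Cdk6 lie left of the band and Myc right of it at left, and Ccnd2 and Myc lie to the right at right.

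Across the gap in mRNA depth, pre-B against pro-B, the size of the ratios turned with the scale. Rb1, Cdk4 and Ccne1 changed sign between the mRNA total and both tables, but their counting intervals on the mRNA total included no difference. On the mRNA total, 1 of 9 genes was at least 2-fold higher and 5 at least 2-fold lower in pre-B cells, against 14.8% and 31.4% of 9148 genes, with a median log2 ratio of -1.31 for the 9 genes and -0.44 for all. On the totals of both tables, 0 were higher and 7 lower, against 2.33% and 83.5% of all genes, with medians of -3.19 and -2.32. Against that background a count of lower genes says little by itself. A change of total moves every gene by the same amount, so a gene's place relative to the median of all genes is fixed by construction between these scales, and the deposited FPKM values, with a median of -2.18 over 8051 genes above 0 in both libraries, are the other view. Myc had a log2 ratio of -1.73 (-3.66 to -0.28) on the mRNA total, -3.60 on both tables and -3.91 in FPKM. Ccnd2 had -1.55 (-2.65 to -0.62), -3.42 and -4.29, and Cdkn1b -1.44 (-2.20 to -0.75), -3.31 and -4.28. These 3 genes lay below the median of all genes on the count scales and in FPKM, as did Cdkn1a with -1.31 (-4.13 to 1.17), -3.19 and -3.31. Cdk6 was lowest of the 10 by counts, with -2.35 (-3.15 to -1.65) and -4.23, but in FPKM it had -2.37, near the median and above those 4 genes. Ccnd3, with -0.45 (-0.98 to 0.05), -2.32 and -2.26, lay near the median throughout. Rb1, with 0.02, -1.85 and -1.77, and Cdk4, with 0.91, -0.96 and -0.69, lay above it. The only higher gene on the mRNA total was Cdkn2c, with 2.37 (0.83 to 4), which was within 2-fold on both tables with 0.50.

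From immature B to mature B cells, 2 of 8 genes were at least 2-fold higher and 2 at least 2-fold lower on the mRNA total, against 26.7% and 18.1% of 8360 genes. With the totals of both tables, 6 were higher and 0 lower, against 79.8% and 3.24%. The median log2 ratio of all genes was 0.27 on the mRNA total, 2.13 on both tables and 1.99 in FPKM. Myc was higher on either scale, with log2 ratios of 1.94 (1.13 to 2.88) and 3.8, as was Cdkn1b with 1.11 (0.40 to 2) and 2.97. In FPKM these ratios were 3.86 and 3.13, above the median of all genes as they were by counts. Ccnd2 and Ccnd3 were lower on the mRNA total, with -1.78 (-2.46 to -1.10) and -1.40 (-2.06 to -0.72), but turned to 0.08 and 0.46 on both tables and to 0.01 and 1.17 in FPKM. Relative to the median of all genes both were lower by counts and in FPKM. Cdk6, with -0.31 (-0.95 to 0.38), 1.55 and 0.17 in the same order of scales, also lay below that median. The comparisons share libraries with each other and are not independent.

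**Figure D3:**
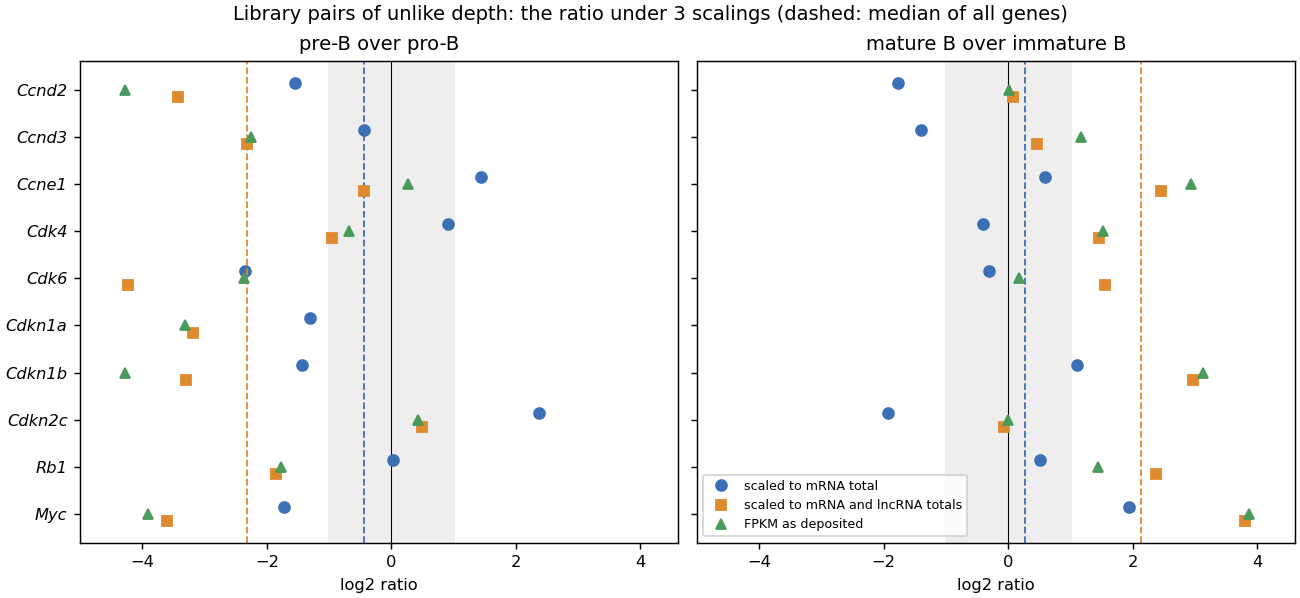
Log2 ratio of each G1 gene across the gap in mRNA depth, pre-B over pro-B at left and mature B over immature B at right, scaled to the mRNA total (circles), to the mRNA and lncRNA totals (squares) or as deposited FPKM (triangles); dashed lines are the median of all genes on the scale of the same colour and the grey band spans 2-fold either way. The squares are shifted from the circles by -1.87 at left and 1.86 at right, and Ccnd2 and Ccnd3 change sign at right.

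The other genes of the pathway were taken from a list of 32, of which 24 had enough counts for mature B against pro-B. Of these 24, 0 were at least 2-fold higher and 10 at least 2-fold lower in mature B cells, with a median log2 ratio of -0.86. The background for this comparison was 13.2% and 24.2%. Among the pocket proteins, E2F factors and their DP partners, 7 of 10 were lower. The lowest were Tfdp1, the DP partner of E2F proteins, with 144 counts in pro-B against 14 in mature B cells (log2 ratio -3.33, -4.24 to -2.54), and the S-phase cyclin gene Ccna2 with 38.4 against 5.04 (-2.90, -4.60 to -1.55). E2f8, an E2F repressor, had 41 against 6 (-2.74, -4.27 to -1.50). The highest ratios were those of Mnt, which encodes a repressor that competes with Myc for Max, with 67 against 121 counts (0.88, 0.44 to 1.34), the INK4 gene Cdkn2d with 21 against 30 (0.55, -0.31 to 1.42) and Ccne2 with 9.01 against 10.58 (0.26, -1.09 to 1.77). None of the 6 genes of the Myc network with enough counts passed 2-fold, while Myc itself did. Cdkn2a, Cdkn2b, Rbl2, E2f5, Cks1b and Mxd3 were listed at 0 in all libraries, as were 33.9% of all genes in the table.

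**Figure D4:**
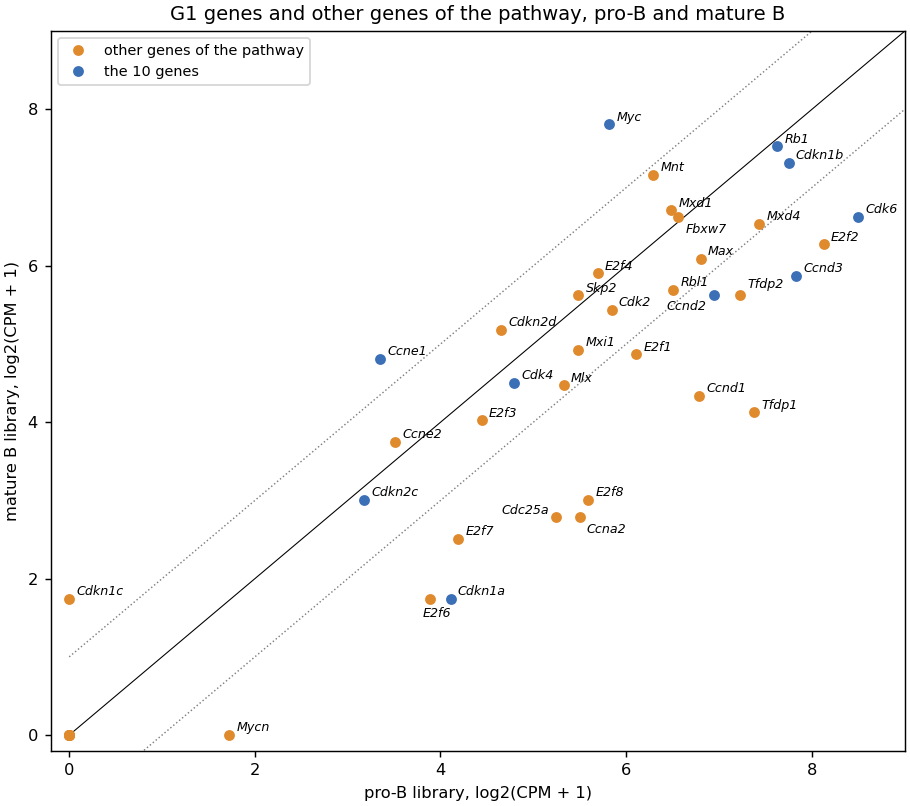
Levels in the pro-B (x axis) and mature B (y axis) libraries, both as log2(CPM + 1), for the 10 G1 genes (blue) and 32 other genes of the pathway (orange, those at 0 in both at the origin), with a line of equality and dotted lines 1 unit either side. Myc lies farthest above the line and Tfdp1, Ccna2 and E2f8 are among the genes far below it.

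Across the depth gap the counts of these other genes turned with the scale as well. In pre-B against pro-B, 3 of 24 were at least 2-fold higher and 8 lower on the mRNA total (14.8% and 31.4% of all genes), and 0 and 20 on both tables (2.33% and 83.5%). Cdkn2d, with 13 counts against 21, was among the 3 on the mRNA total, but had a log2 ratio of -0.71 on both tables. In mature against immature B, 3 of 19 were higher and 4 lower on the mRNA total (26.7% and 18.1%), and 13 and 0 on both tables (79.8% and 3.24%). In immature B against pre-B, a pair of like depth, it was 0 and 1 of 15, against 18.9% and 20.2% of all genes.

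For the 6 genes with at least 100 counts over the libraries, the most alike patterns among 4739 genes were found by the Euclidean distance of centred log2(CPM + 1) values over the 4 libraries. The nearest to Myc were Taf4b (distance 0.188), with 27, 2, 8 and 101 counts, and Txndc16 (0.197). Nearest to Cdk6 were Tmem229b (0.169) and Maf (0.240), and to Ccnd3 Plxnb2 (0.163) and Herpud1 (0.222). Cdkn1b lay nearest to Secisbp2l (0.0587) and Abcf1 (0.0940), and Rb1 to Strn4 (0.0607) and Rasa1 (0.0616). For Ccnd2 the nearest were Nsrp1 (0.272) and Arglu1 (0.389). With 4 points from 4 libraries these distances describe likeness of the profiles only.

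None of the 1005 circRNAs in the circRNA table came from any of the 10 genes.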

How the data were processed

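The 10 genes were described in the 4 rRNA-depleted RNA libraries, grouped by their labels; small RNA libraries were not analysed here. The authors filtered reads with fastp, removed rRNA reads with Bowtie2, mapped with HISAT2 in strand-specific mode and quantified with StringTie. The deposited mRNA and lncRNA tables hold estimated counts, not all whole, and FPKM values, which the authors scaled by length and mapped fragments. The deposited circRNA counts are back-spliced reads from find_circ. The build of the tables is not given in the sources used here beyond mm9 and Bowtie 0.12.2 in the submitters' processing notes.

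Counts were scaled to the column total (CPM) and rounded for exact Poisson, Wilson and conditional binomial 95% intervals. Without molecular identifiers, intervals cover counting error only. No test was run with 1 library per stage. A ratio was counted from 2-fold, among genes with at least 10 counts in 1 of the 2 libraries, with 0 set at 3 counts. The procedure was tested on simulated data. Alternatives used edgeR 4.0.16 TMM factors, DESeq2 1.42.0 size factors, FPKM, other count minimums, a fold of 1.5, totals without immunoglobulin genes, and, chosen after seeing the data, the totals of the mRNA and lncRNA tables. Named are the 10 genes and the 3 other pathway genes with the highest and the lowest ratio of mature B to pro-B. The 2 nearest in pattern to each gene with at least 100 counts are named as well. Gins2, Tyms, Ccnd1, the single marker genes, Cdkn2d in pre-B cells and the pathway genes at 0 were named after their values were seen. The members and lists were chosen with earlier results of these data known. Calculations used Python 3.11.15, scipy 1.17.1 and R 4.3.3.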

Additional observations from a re-analysis of the deposited data

Results flagged for a closer look

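The lncRNA table, which the comparisons did not use for levels, lists non-coding transcripts under the symbols of 4 of the genes. Of these transcripts, 3 exceeded 3 counts, the value at which a count of 0 was set. The Rb1 transcript ENSMUST00000170967 had 26 counts in pro-B, 7 in pre-B, 0 in immature B and 11 in mature B cells. Another Rb1 transcript, ENSMUST00000163932, had 2, 2, 8 and 4 counts in the same order. The Ccnd2 transcript ENSMUST00000201985 had 6.86 counts in the pro-B library and 0 in the others. How reads were divided between these transcripts and the mRNA rows was not tested.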

How the results depend on the processing

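No paired analysis was possible because the stages share only 1 replicate number, and no library could be left out with 1 per stage. For pre-B against pro-B, the 1 gene at least 2-fold higher became 2 with DESeq2 size factors, without a count minimum or with a fold of 1.5, and 0 in FPKM, with at least 30 counts or on the totals of both tables. For mature against immature B, 2 higher and 2 lower became 6 and 0 both in FPKM and on both tables, and the log2 ratios of Ccnd2 and Ccnd3 turned to 0.0062 and 1.17 in FPKM and to 0.081 and 0.46 on both tables. For immature B against pre-B, 2 higher became 1 with at least 30 counts, and 0 lower became 3 with a fold of 1.5. For mature B against pro-B, 2 higher became 1 with at least 30 counts. Of the 10 genes, 4 were highest in the pro-B library on the mRNA total and 7 on both tables. In pre-B it was 3 against 1 in FPKM and 1 on both tables, and in immature B 1 against 0 and 0. The shift between the mRNA total and both tables follows from the mRNA shares, and the cause of the low shares was not tested. TMM factors, totals without immunoglobulin genes and the largest row per symbol kept all 8 counts of genes past the fold within 1.5 times. The low counts of Cdkn1a, Cdkn2c, Ccne1 and Cdk4 limit what their values show.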
